A study of Mus musculus with 18 samples.

Results

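The genes described here code for the receptors of the classical brain neurotransmitters. They were taken from the deposited gene table as every protein-coding gene whose symbol marks a subunit or receptor of 11 classes: GABA-A, GABA-B, AMPA, kainate, NMDA, metabotropic glutamate, nicotinic, muscarinic, serotonin, dopamine and adrenergic. The rule used symbols only and no measured value, and it found 91 of the 36172 genes in the table. The dopamine D1 receptor gene was not among them, because the table lists it under an older symbol, Drd1a.

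All mice carried Cx3cr1-cre/ERT2 and the NuTRAP transgene, and all had received tamoxifen, which lets the Cre recombinase act in cells that express Cx3cr1 and switches on an EGFP-tagged ribosomal protein there. In the brain Cx3cr1 marks microglia, the resident immune cells, but the driver also acts in other cells that express the gene, such as macrophages at brain borders. Mice of about 3 months and of both sexes (2 female and 2 male given PBS, 4 female and 1 male given LPS) were injected intraperitoneally with 5 mg/kg lipopolysaccharide (LPS), a component of bacterial outer membranes, or with phosphate-buffered saline (PBS), and a hemisected brain was taken 24 h later. From each homogenate a portion was kept as input, and an antibody to GFP captured the tagged ribosomes (translating ribosome affinity purification, TRAP) to give the positive fraction. The 9 animals thus gave 18 libraries in 4 groups, with 4 PBS and 5 LPS animals behind each fraction, named by fraction and treatment (for example Input PBS or Positive LPS).

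Receptors for fast transmission are channels built from several subunits: the GABA-A, AMPA, kainate, NMDA and nicotinic receptors and the serotonin receptors made from Htr3a and Htr3b. The GABA-B, metabotropic glutamate, muscarinic, dopamine and adrenergic receptors and the other serotonin receptors act through G proteins, often to tune release or excitability. Most are known from neurons, while some are well known from glia, such as Grm3, Gabrb1, Gabrg1 and Grin2c in astrocytes. GABA and noradrenaline acting on glia are studied as signals that restrain inflammatory responses.

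The input library of animal 271 held 1252 counts in all and was left out, so Input LPS has n = 4 below. The other 17 libraries held from 22968939 to 35123345 estimated counts. Values are normalised counts, that is estimated counts divided by a size factor for each library, and are listed in the order of animals 268, 272, 273 and 506 (PBS) and 266, 267, 270, 271 and 507 (LPS; inputs without 271). A gene is called higher or lower where edgeR's quasi-likelihood test gave a Benjamini-Hochberg adjusted p under 0.05 over all 14803 genes tested and the log2 fold change was over 0.32 in size. Log2 fold changes are given ± SE. Of the 91 receptor genes, 80 passed the filter of over 20 normalised counts in every library of at least 1 group and were tested. The other 11 (Gabrr1, Gabrr3, Grm6, Chrna9, Chrnd, Chrne, Chrng, Htr2b, Htr3b, Drd3 and Drd4) did not.

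The labelled cell type was checked against its markers. All 12 microglial marker genes tested were called higher in the positive fraction than in input, in PBS and in LPS animals, with a median log2 fold change of 4.25 and 4.06, and their summed level went from 13050 to 16923 normalised counts in Input PBS libraries and from 240781 to 284631 in Positive PBS. Neuronal marker RNA was present in the positive fraction at levels near those of the input. Summed over 15 neuronal marker genes, none of which is a receptor counted here, the level went from 337179 to 357484 in Input PBS, from 354397 to 412508 in Positive PBS, from 312307 to 335710 in Input LPS and from 265371 to 364553 in Positive LPS. Of these 15 genes 4 were higher and none lower in the positive fraction in PBS animals, and 4 were higher and 2 lower in LPS animals. Of 95 neuronal genes on a list that the study compiled, after removal of the 4 that are receptors, 26 were higher and 14 lower in PBS animals (median 0.04) and 10 higher and 32 lower in LPS animals (median -0.15). Their summed level was 663915 to 712347 in Input LPS and 527348 to 665209 in Positive LPS.

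Levels were compared between genes per kilobase of exon. In Positive PBS libraries the highest were Gabbr1, a GABA-B subunit, with a mean of 2482 normalised counts per kb, Gria1, an AMPA subunit, with 1866, and Grin1, the subunit that every NMDA receptor contains, with 1770.0. Gabrb2, a GABA-A subunit, followed with 1463. The same genes led in Input PBS, at 2566, 2183, 1533 and 1513 per kb. The lowest gene tested was Gabrg3, at 3.95 per kb in Positive PBS and 5.39 in Input PBS. Htr3a, a serotonin receptor gene of intermediate level, went from 60.9 per kb in Input PBS to 235 in Positive PBS. It was thus the highest of the 12 serotonin receptor genes tested in Positive PBS, with Htr2c next at 164, while in Input PBS Htr2c led at 167. Exon lengths came from another annotation than the counts, so values per kb are approximate.

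**Figure D1:**
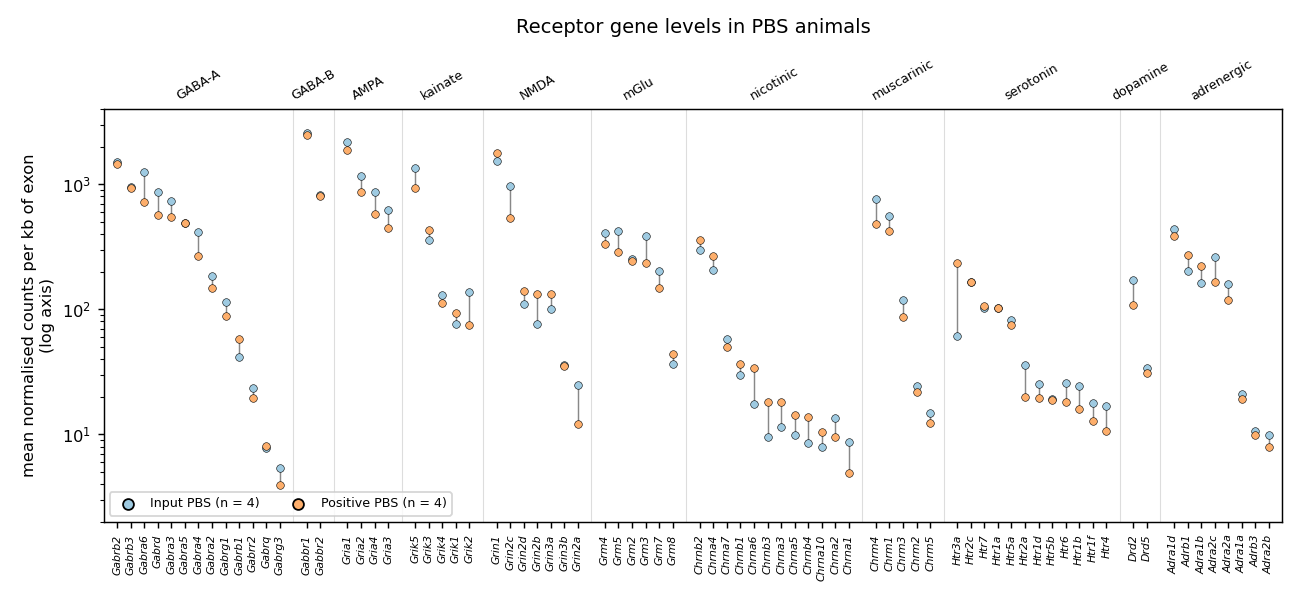
Mean level of 76 of the 80 tested receptor genes in PBS animals, in normalised counts per kb of exon on a log axis, by receptor class. Blue points are Input PBS and orange points Positive PBS (n = 4 each), joined by a line for each gene, and of the genes shown Htr3a has the longest line that rises from input to positive fraction.

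The first comparison asked which receptor genes had a higher level in the positive fraction than in input. Neuronal marker RNA was in the positive fraction too, and whether the RNA of a receptor gene was on tagged ribosomes was not tested. In PBS animals 9 of 80 receptor genes were higher in the positive fraction than in input and 22 were lower, with a median log2 fold change of -0.19. Over all 14803 genes 20.7% were called higher and 19.2% lower, with a median of -0.01. The higher genes included the channel subunits Htr3a, Chrna6, Chrnb3, Grin2b, Gabrb1, Grin3a and Chrna4 and the adrenergic receptor gene Adrb1. By class, 3 of 12 nicotinic genes were higher and none lower. None of the 4 AMPA, 5 kainate, 7 metabotropic glutamate and 5 muscarinic genes was higher, while 2, 2, 3 and 3 of them were lower. Of 15 GABA-A genes 1 was higher and 5 were lower, of 7 NMDA genes 2 and 2, of 12 serotonin genes 1 and 2, of 9 adrenergic genes 2 and 2, and 1 of 2 dopamine genes was lower. Both GABA-B genes were uncalled.

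Markers of other cell types moved between the fractions as well. In PBS animals 147 of 193 oligodendrocyte genes on the study's list were lower in the positive fraction and 8 higher (median -0.87), and 64 of 134 of its astrocyte genes were lower and 7 higher (median -0.34). All 6 markers of oligodendrocyte precursors were lower (median -1.54), with a summed level of 9070 to 12819 in Input PBS and 3534 to 4411 in Positive PBS. Of 8 endothelial markers 7 were higher (median 1.45), from a summed level of 2408 to 3720 in Input PBS to 6497 to 10008 in Positive PBS. The part of these cells in the ratios of the receptor genes was not tested.

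**Figure D2:**
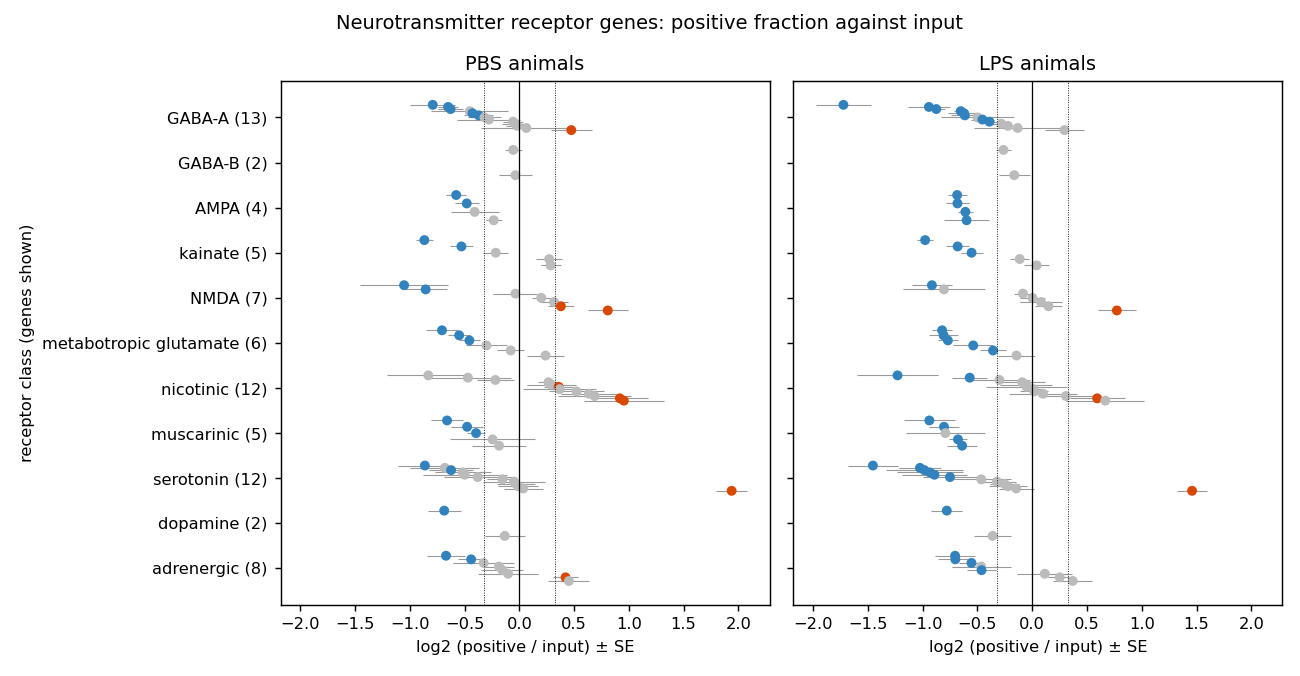
Log2 ratio of positive fraction to input (± SE) for 76 of the 80 tested receptor genes by class, in PBS animals (left) and LPS animals (right). Orange points were called higher, blue points lower and grey points neither, dotted lines mark 0.32 on either side of 0, and Htr3a (1.94 and 1.46) lies far to the right in both panels.

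Adrb1 codes for a beta-adrenergic receptor, which binds adrenaline and noradrenaline. It had 683, 720.2, 702 and 639 in Input PBS and 767, 976, 1007 and 948 in Positive PBS (0.42 ± 0.12, adjusted p = 0.0065). Its groups were apart, but by little. Of the alpha-adrenergic genes, which couple to other G proteins, Adra2a and Adra2c fell from a mean of 772 ± 71.5 to 571 ± 114 (SD, n = 4) and from 902 ± 102 to 569.8 ± 31.6, with log2 fold changes of -0.44 ± 0.12 and -0.67 ± 0.17. Adra1a had 184 ± 48.6 in Input PBS and 166 ± 11.4 in Positive PBS and was not called.

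Htr3a codes for the obligate subunit of the serotonin-gated channel. Input PBS libraries had 137, 148, 112 and 111 and Positive PBS libraries 455, 504, 555 and 442. All positive libraries lay above all inputs, and the ratio within an animal was 2.32 to 4.95 over the 8 animals with both libraries. The log2 fold change was 1.94 ± 0.14 in PBS animals (3.83-fold, adjusted p = 3.0e-09) and 1.46 ± 0.14 in LPS animals (adjusted p = 4.6e-08). After LPS the inputs had 161, 142, 152 and 148 and the positive libraries 374, 369.8, 447, 531 and 364. The LPS effect was -0.23 ± 0.13 in the positive fraction and missed the threshold (adjusted p = 0.16), and it differed from that of the input by -0.48 ± 0.19 (adjusted p = 0.16, or 0.031 with animal terms in the fit). Its partner Htr3b did not exceed 6.49 normalised counts in any library. Htr3a is also on a list of neuronal marker genes that the study compiled.

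Nicotinic acetylcholine receptors are pentamers of alpha and beta subunits, and the subunits Chrna6 and Chrnb3 are known for their restricted expression in midbrain and visual pathways. Chrnb3 had 59.2, 66, 46.5 and 72.4 in Input PBS and 124, 129, 84.9 and 125 in Positive PBS, with no overlap (0.92 ± 0.26, adjusted p = 0.0071). Chrna6 had 22.8, 70.2, 57.9 and 54.3 and 76.2, 152, 75.7 and 93 and was called as well (0.95 ± 0.37, adjusted p = 0.04). Its call was lost without Input PBS 268 (0.71), 273 (1.02) or 506 (0.99) or Positive PBS 272 (0.66) or 506 (0.98). The far more abundant Chrna4, a subunit of the main brain receptor, rose by 0.36 ± 0.13 (adjusted p = 0.035). Chrna7, a subunit often studied on microglia, had 291, 230.1, 229.8 and 302 in Input PBS and 213, 244, 248 and 204 in Positive PBS. These groups overlapped, and in LPS animals it changed by -0.57 ± 0.16 (adjusted p = 0.005).

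NMDA receptor genes split by subunit. Grin2b, the regulatory subunit of early and forebrain receptors, rose from 2105, 1742, 1741 and 1937 to 3545, 2687, 2084 and 4926 (0.81 ± 0.18, adjusted p = 0.0014), and the positive library was the higher in 8 of 8 animals, by 1.20 to 2.54 times. Grin2c, known from cerebellar granule cells and astrocytes, went the other way, from 5312, 3830.2, 5537 and 4773 to 3640.4, 2134, 2737 and 2301 (-0.86 ± 0.19, adjusted p = 0.0013). Grin2a, the main adult regulatory subunit, had 571, 278, 281 and 661 and 286, 235, 114 and 231. Its libraries spread widely and overlapped, and the call (-1.05 ± 0.40, adjusted p = 0.04) was lost without Input PBS 268 (-0.91) or 506 (-0.80) or Positive PBS 272 (-1.09), 273 (-0.84) or 506 (-1.08). The common subunit Grin1 had 14869 ± 865 in Input PBS and 17169 ± 1373 in Positive PBS and was not called. Grin3a rose from 1237 ± 139 to 1616 ± 226 (0.38 ± 0.12, adjusted p = 0.013), a call lost without Input PBS 273 (0.32) or Positive PBS 272 (0.28). Another gene, Ppp3r2, lies inside Grin3a on the same strand, so reads of the pair may not be fully separated.

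No kainate or AMPA receptor gene was called higher than in input. Grik2, a core kainate subunit, had 1948, 1579.7, 1839 and 1877 in Input PBS and 995, 1017, 1042 and 938 in Positive PBS. Every positive library lay below every input (-0.87 ± 0.08, adjusted p = 3.8e-08). Gria3 and Gria4 changed by -0.48 ± 0.11 and -0.58 ± 0.09 on the log2 scale. Gria1 and Gria2, the most abundant AMPA subunits, had 13189.5 ± 1346 and 17955 ± 977 in Input PBS and 11279 ± 679 and 13606 ± 1879 in Positive PBS. Neither was called, since Gria1 was under the limit of fold change and Gria2 had an adjusted p of 0.14. With animal terms in the fit Gria2 was called (-0.42, adjusted p = 0.0014).

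Among GABA-A subunit genes Gabra6, known from cerebellar granule cells, had 3768, 1874, 3398 and 3381 in Input PBS and 2267, 1415, 1758 and 1781 in Positive PBS. The groups overlapped through the input of animal 272 (-0.79 ± 0.21, adjusted p = 0.0044). Gabrd, a subunit of receptors outside synapses, had 2680.3, 2164, 2649 and 2509 and 1734, 1388, 1678 and 1711, without overlap (-0.63 ± 0.11, adjusted p = 1.6e-04). Gabrb1 was the only GABA-A gene called higher, from 559, 646, 537 and 571 to 628, 770.0, 740.4 and 1092 (0.47 ± 0.19, adjusted p = 0.045). Its call was lost without any of 8 libraries, namely Positive PBS 506 (0.29), Input PBS 268 (0.46), 273 (0.44) and 506 (0.47), Positive PBS 272 (0.50) and 273 (0.51), and Input LPS 507 and Positive LPS 267 (both 0.47). The GABA-B genes Gabbr1 and Gabbr2 had 19922 ± 248 and 5511 ± 869 in Input PBS and 19272 ± 977 and 5406 ± 449 in Positive PBS, and both pairs of groups overlapped.

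Among G protein-coupled receptor genes Grm3, a metabotropic glutamate receptor of astrocytes and neurons, had 1183, 1189, 938 and 1377 in Input PBS and 783, 699, 575 and 832 in Positive PBS, without overlap (-0.71 ± 0.14, adjusted p = 5.5e-04). Grm5, which couples to calcium release, changed by -0.55 ± 0.10 and Grm7, a presynaptic receptor, by -0.46 ± 0.10. Drd2, the dopamine receptor of indirect-pathway striatal neurons, had 481, 490.1, 309 and 480.1 and 265, 308, 248 and 278 (-0.69 ± 0.15, adjusted p = 0.0011). Htr2a, a cortical serotonin receptor, fell from 266, 147, 124 and 269.6 to 129.6, 116, 84.9 and 115 with overlapping groups (-0.86 ± 0.25, adjusted p = 0.0083). Chrm3, a muscarinic receptor, fell from a mean of 749 ± 99.3 to 541 ± 85.2 (-0.48 ± 0.14). Htr7 had 351 ± 63.7 and 361 ± 94.6, and its groups overlapped.

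In LPS animals the same ratio was tested. Of 80 receptor genes 4 were higher in the positive fraction (among them Htr3a, Grin2b and Chrna3, a ganglionic nicotinic subunit) and 40 were lower, with a median log2 fold change of -0.46. Over all genes 27.1% were called higher and 26.4% lower, with a median of -0.04. All 4 AMPA genes, 10 of 15 GABA-A genes, 5 of 7 metabotropic glutamate genes, 4 of 5 muscarinic genes and 6 of 12 serotonin genes were lower. Of the genes called lower, Gabrr2 showed the widest gap, with 177, 153, 187 and 171 in Input LPS and 61.3, 47.7, 51.9, 55.2 and 46.3 in Positive LPS. Htr2a followed, with 335, 202, 207 and 286 and 114, 89.1, 94.6, 75.1 and 101. Both gaps were without overlap, at -1.72 ± 0.25 and -1.45 ± 0.23 on the log2 scale. Gria2 changed by -0.60 ± 0.21, although its Positive LPS libraries ran from 7041 to 17334 and overlapped the inputs, and the call was lost without Input LPS 266 (-0.53, adjusted p = 0.057). With animal terms in the fit Grin2a (-1.27, adjusted p = 1.3e-05) was called lower in LPS animals too, and Gabrb1 (0.41, adjusted p = 0.012) and Chrna6 (0.73, adjusted p = 0.034) were called higher. In PBS animals Chrna3 was uncalled, but was called higher with these terms (0.65, adjusted p = 0.024). The counts in PBS and in LPS animals come from separate animals, but whether a gene's ratio differed between them is tested only by the difference of the LPS effects, given below.

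The second comparison asked how receptor genes in the positive fraction differed after LPS. Most of those called were lower: 29 of 80 were lower in Positive LPS than in Positive PBS and 1 was higher, with a median log2 fold change of -0.35. Over all genes 14.9% were called lower and 18.9% higher, with a median of 0.01. In 74 of the 80 the fold change was below 0, called or not, while the median over all genes was just above 0. Summed over all 91 genes, the level was 161509 to 174441 normalised counts in Positive PBS libraries and 131338 to 138053 in Positive LPS, without overlap. All 7 metabotropic glutamate genes tested were lower, as were 5 of 15 GABA-A, 2 of 4 AMPA, 3 of 5 kainate, 2 of 7 NMDA, 2 of 12 nicotinic, 2 of 5 muscarinic, 2 of 12 serotonin, 1 of 2 dopamine and 3 of 9 adrenergic genes.

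Markers of neurons and of several other cell types were lower as well. Of 15 neuronal marker genes 8 were lower and none higher in Positive LPS, with a median of -0.36, and of the 95 neuronal genes on the study's list 42 were lower and none higher, with a median of -0.32. Of 39 genes for receptor scaffolds and auxiliary subunits 18 were lower and none higher (median -0.31), and of 30 genes for transmitter synthesis and transport 7 were lower and none higher (median -0.28). The study's astrocyte and oligodendrocyte lists also had lower medians, at -0.30 and -0.29. Shorter lists of endothelial, pericyte and smooth muscle, and oligodendrocyte precursor markers had medians of -0.47, -0.50 and -0.81. Of the 12 microglial marker genes 6 were lower and 3 higher (median -0.34). The study's microglial list went the other way, with 99 of 237 genes higher and 66 lower (median 0.22). Neutrophil and monocyte markers also rose (median 1.90). The part of what these lists mark in the receptor genes' fall was not tested. In bulk libraries fewer cells of a type and less RNA per cell cannot be told apart.

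**Figure D3:**
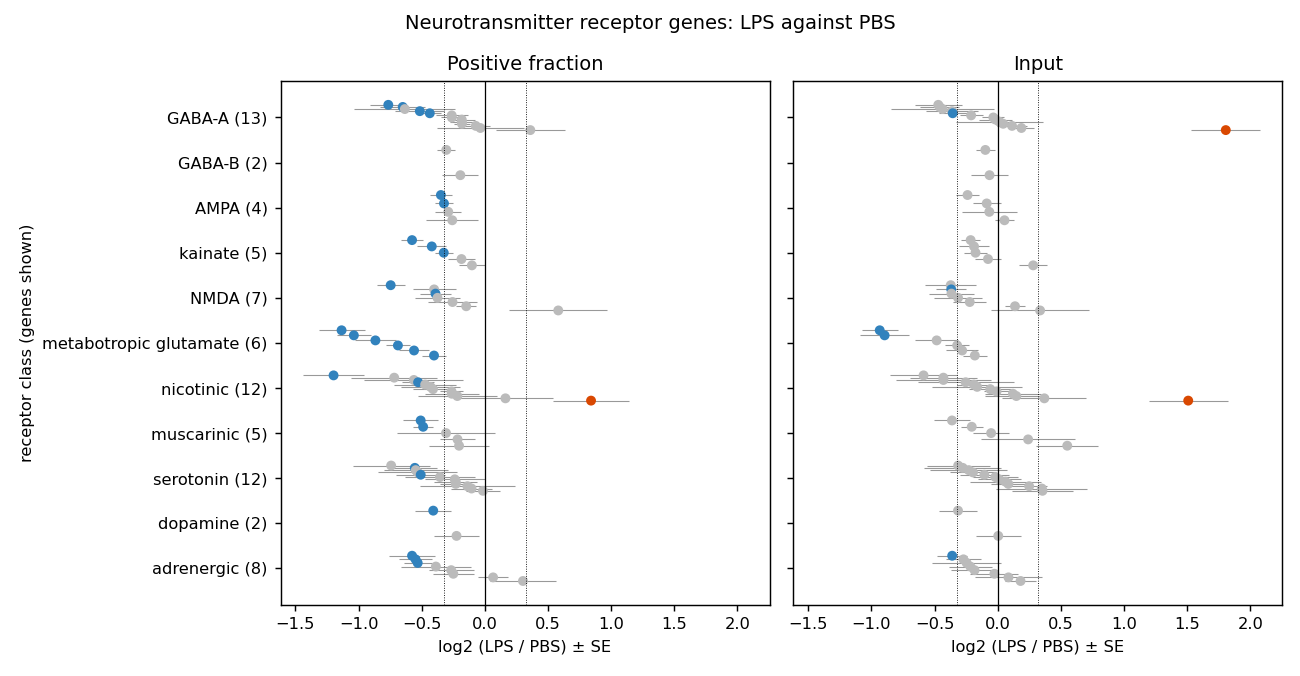
Log2 ratio of LPS to PBS (± SE) for 76 of the 80 tested receptor genes by class, in the positive fraction (left) and in input (right). Orange points were called higher, blue points lower and grey points neither, and dotted lines mark 0.32 on either side of 0. The metabotropic glutamate genes lie wholly below 0 in both panels and are all blue in the left panel.

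The metabotropic glutamate receptors were the class in which every tested gene was called lower. In the GABA-B, AMPA, kainate, muscarinic, serotonin and dopamine classes every fold change was below 0 too, but not every gene was called. Grm4, a presynaptic receptor abundant in cerebellar granule cells, had 2253, 1797, 1955 and 1931 in Positive PBS and 1009.6, 1185, 705, 609 and 1013 in Positive LPS (-1.13 ± 0.18, adjusted p = 8.1e-05). Grm3 had 783, 699, 575 and 832 and 322, 344, 405, 404 and 284 (-1.04 ± 0.14, adjusted p = 9.9e-06). In both the groups were apart, and in every LPS library the level was under that of every PBS library. Grm8 and Grm7, presynaptic receptors related to Grm4, fell from 414, 472, 401 and 438 to 227, 253, 171, 219 and 315 and from 871, 1008, 883 and 757 to 528, 574, 531, 518 and 580.4, with log2 fold changes of -0.87 ± 0.16 and -0.69 ± 0.09. Grm2, which is related to Grm3, changed by -0.56 ± 0.12, and Grm5, which signals through calcium, by -0.40 ± 0.09. None of the 7 pairs of groups overlapped. The share of all genes without overlap is not given here, so this count cannot show whether the class stands out. The calls of Grm2, Grm3, Grm4, Grm5, Grm7 and Grm8 were kept in all 25 alternative fits, with values from -1.13 to -0.90 for Grm3 and from -1.25 to -1.02 for Grm4. Grm6, known from the retina, did not exceed 6.65 normalised counts in any library.

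In the input the same genes were tested in the whole tissue. Grm3 went from 1183, 1189, 938 and 1377 in Input PBS to 645, 536, 589 and 678 in Input LPS, and Grm4 from 2804, 1690.2, 2436 and 2788 to 1361, 1531, 977 and 1348. Both were without overlap and were called, at -0.93 ± 0.14 (adjusted p = 1.7e-04) and -0.90 ± 0.19 (adjusted p = 0.0036). Without animals 506 and 507 the input value of Grm4 was -0.84 with an adjusted p of 0.054. The other 5 were uncalled, with values from -0.48 for Grm8 to -0.18 for Grm5, and Grm7 (-0.32 ± 0.10, adjusted p = 0.033) stood at the fold limit. With animal as a random block in limma, Grm7 (-0.34, adjusted p = 0.024) and Grm8 (-0.52, adjusted p = 0.026) were called lower in input too. The LPS effects in the 2 fractions differed by -0.38 to -0.10 across the 7 genes, and none of these differences was called.

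Among channel subunits Chrnb3 changed most. It had 124, 129, 84.9 and 125 in Positive PBS and 29.4, 39.4, 65.8, 44.2 and 72.4 in Positive LPS, without overlap (-1.20 ± 0.24, adjusted p = 7.7e-04), while in input it had 59.2, 66, 46.5 and 72.4 and 29.7, 45.9, 39.4 and 46.8 (-0.59 ± 0.26, adjusted p = 0.15). Its enrichment in PBS animals was not seen in LPS animals at this threshold (0.31 ± 0.25, adjusted p = 0.31), but the difference of the LPS effects, -0.61 ± 0.36, was not called either (adjusted p = 0.38). Chrna4 changed by -0.53 ± 0.13. Chrna6 had 76.2, 152, 75.7 and 93 and 44.1, 44.5, 80.7, 55.2 and 77.4 and missed the threshold (-0.72 ± 0.34, adjusted p = 0.1). Chrna10, known mainly from inner ear hair cells and immune cells, was the 1 receptor gene called higher, from 34.8, 16.2, 15.7 and 43.3 to 57.6, 62.2, 36.2, 39.8 and 50.3 (0.84 ± 0.30, adjusted p = 0.033). Its groups overlapped at low counts, and the call was lost without Positive PBS 272 (0.64) or 273 (0.66) or Positive LPS 266 (0.78), 267 (0.75) or 507 (0.84). Neither PBS group of Chrna10 passed the filter on low counts (lowest library 16.5 in Input PBS and 15.7 in Positive PBS). The gene was tested only because its LPS groups passed.

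**Figure D4:**
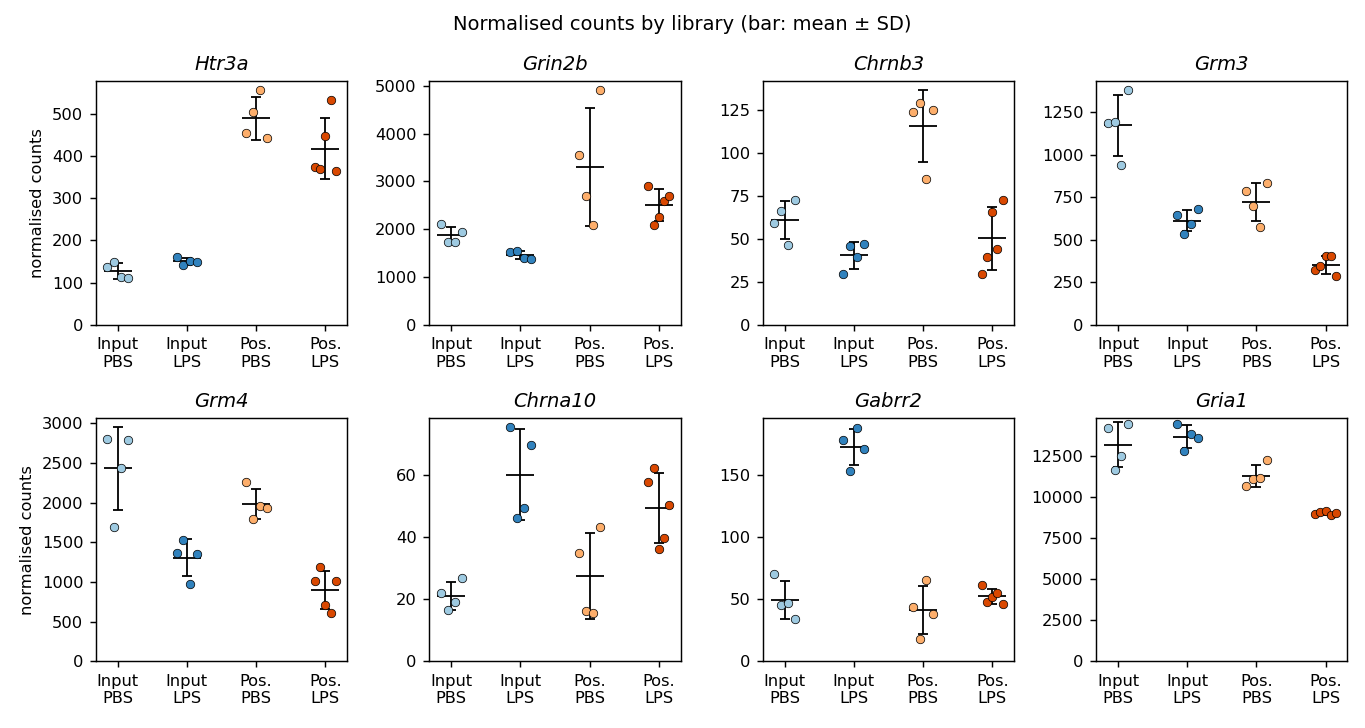
Normalised counts of 8 receptor genes in each of the 17 libraries (points), with the mean and SD of each group (bars). Htr3a is high in both positive groups, Grm3 and Grm4 are low after LPS in both fractions, Gabrr2 is high in Input LPS alone, and the 5 Positive LPS libraries of Gria1 lie close together below all others.

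Of the GABA-A genes Gabra2, a subunit of forebrain synapses, had 1118, 1065, 975 and 1366 in Positive PBS and 731, 754, 526, 507 and 812 in Positive LPS, without overlap (-0.76 ± 0.15, adjusted p = 4.6e-04). In input its value of -0.46 ± 0.15 was uncalled (adjusted p = 0.055) but was called with animal as a random block in limma (-0.49, adjusted p = 0.018). Gabrb1 had 628, 770.0, 740.4 and 1092 and 562, 541, 439.6, 334 and 695, with overlap (-0.65 ± 0.18, adjusted p = 0.0068). Gabrb2, a subunit of the most common synaptic receptor, changed by -0.44 ± 0.09. Gabra6 changed by -0.52 ± 0.20 (adjusted p = 0.042) with overlapping groups, and 10 of 25 alternatives lost this call, among them those without Positive PBS 268 (-0.39), 273 (-0.53) or 506 (-0.52) or Positive LPS 267 (-0.52), 270 (-0.47), 271 (-0.47) or 507 (-0.46). Gabbr1 had an adjusted p of 0.0023 but was under the limit of fold change (-0.31 ± 0.07).

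Grin3a, an NMDA subunit that lowers calcium flow, had 1396, 1922, 1636 and 1511 in Positive PBS and 904, 1130.2, 803, 948 and 1038 in Positive LPS, without overlap (-0.75 ± 0.11, adjusted p = 3.9e-05). Grin2d changed by -0.39 ± 0.12, and Grin1, Grin2a, Grin2b and Grin2c were not called, with adjusted p from 0.067 to 0.24. Of the kainate genes Grik1 changed by -0.58 ± 0.09, Grik3 by -0.42 ± 0.11 and Grik2 by -0.33 ± 0.07. Grik2 stood so near the fold limit that leaving out Positive PBS 272 or 273 or Positive LPS 266, 267 or 507 ended its call, with values of -0.30 to -0.32. Of the AMPA genes Gria4 changed by -0.35 ± 0.09 and Gria1 by -0.32 ± 0.07. The value of Gria1 was at the fold limit, and with animal as a random block in limma it was just under it and the call was lost (-0.32, adjusted p = 0.0014).

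Of the receptors for acetylcholine and monoamines that act through G proteins, the muscarinic genes Chrm1 and Chrm4 changed by -0.49 ± 0.08 and -0.51 ± 0.14, and Chrm3 had 541 ± 85.2 in Positive PBS and 465 ± 61.9 in Positive LPS. In input Chrm4 was uncalled, but was called lower with animal as a random block in limma (-0.40, adjusted p = 0.035). Adrb1 went from 767, 976, 1007 and 948 to 665, 625, 577, 554 and 776 (-0.53 ± 0.11, adjusted p = 8.8e-04), and the groups overlapped only through animal 507. Adra1a and Adra1d changed by -0.58 ± 0.18 and -0.55 ± 0.13. Drd2 changed by -0.41 ± 0.14 (adjusted p = 0.03), a call that was lost without Positive PBS 272 (-0.35) or 506 (-0.40) or Positive LPS 271 (-0.35) and, with animal as a random block in limma, had an adjusted p of 0.071. Htr7 changed by -0.55 ± 0.17 (adjusted p = 0.015), which was lost without Positive PBS 272 (-0.39), and Htr1b by -0.51 ± 0.20 (adjusted p = 0.045, or 0.10 with the block). Adra2a had 571 ± 114 and 599 ± 28.7, and Adra2c 569.8 ± 31.6 and 479 ± 129.6, and neither was called.

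The third comparison, LPS against PBS in input, showed how far these changes were seen in whole tissue. Of 80 receptor genes 2 were higher (Gabrr2 and Chrna10) and 5 lower (Grm3, Grm4, Grin3a, Gabrd and Adrb1), with a median log2 fold change of -0.16. Over all genes 7.19% were called higher and 5.17% lower, with a median of 0.01. At an unadjusted p under 0.05 there were 21 receptor genes here and 40 in the positive fraction. The share of all genes at this p is not given here. By the calls, all genes also had larger shares in the positive fraction, at 18.9% higher and 14.9% lower. The summed level over the 91 genes was 169142 to 195830 in Input PBS and 167303 to 178302 in Input LPS, and these ranges overlapped. None of the 15 neuronal markers was called in input, and their median was -0.18. Of the 95 neuronal genes on the study's list 6 were lower and none higher (median -0.09). Glial lists moved in both directions in the same comparison. Of 193 oligodendrocyte genes on the study's list 77 were lower and 3 higher (median -0.36). Of 134 of its astrocyte genes 39 were lower and 12 higher (median -0.19), and 4 of 6 markers of oligodendrocyte precursors were lower (median -0.74). Of 237 of its microglial genes 79 were higher and 20 lower (median 0.27), and of the 12 microglial markers 3 were higher and 4 lower. Of 8 other astrocyte markers 2 were higher and 1 lower. Their summed level was 130723 to 136298 in Input PBS and 141627 to 153595 in Input LPS. The part of any of these cell types in the falls of receptor genes was not tested.

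Gabrr2 codes for a rho subunit of GABA-gated channels that is best known from the retina. It had 70.2, 45.4, 46.5 and 34.3 normalised counts in Input PBS and 177, 153, 187 and 171 in Input LPS. Every LPS input lay above every PBS input, at a fold change of 3.50 (log2 1.81 ± 0.27, adjusted p = 1.6e-04). The positive libraries did not share this: Positive PBS had 43.6, 18.1, 65.3 and 38.2 and Positive LPS 61.3, 47.7, 51.9, 55.2 and 46.3, with overlap. Chrna10 had 21.9, 16.5, 19 and 26.7 in Input PBS and 75.2, 45.9, 49.3 and 69.5 in Input LPS, without overlap (2.84-fold, log2 1.51 ± 0.31, adjusted p = 0.0028). Both calls were kept in all 25 alternative fits. Chrna10 was tested only because its LPS groups passed the filter on low counts, as given above. Neutrophil and monocyte markers rose in both fractions. Of 5 tested, 3 were higher in input after LPS, and 3 were higher and 1 lower in the positive fraction. Their summed level was 170 to 464 normalised counts in Input PBS and 474 to 1218 in Input LPS. It was 164 to 346 in Positive PBS and 439 to 988 in Positive LPS, and Ly6g was at 0 in every library. Other lists rose in input too: 79 of 237 microglial genes on the study's list and 2 of 8 endothelial markers were higher. The part of any of these cell types in the rise of Gabrr2 and Chrna10 was not tested.

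The promoters of these 2 genes and of Grm3, which fell in both fractions, are shown for comparison, as the 250 bases before the transcript start, 5′ to 3′ on the strand of the gene, from RefSeq on build GRCm38.p6, with CpG pairs in capitals. Gabrr2 lies at chr4:33062862-33063111 (+), Chrna10 at chr7:102116714-102116963 (-) and Grm3 at chr5:9725353-9725602 (-).
Gabrr2: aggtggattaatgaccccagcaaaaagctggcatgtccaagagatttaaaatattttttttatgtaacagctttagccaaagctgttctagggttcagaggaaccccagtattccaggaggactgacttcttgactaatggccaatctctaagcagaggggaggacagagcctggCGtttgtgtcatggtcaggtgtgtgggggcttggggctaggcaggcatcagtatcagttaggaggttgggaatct
Chrna10: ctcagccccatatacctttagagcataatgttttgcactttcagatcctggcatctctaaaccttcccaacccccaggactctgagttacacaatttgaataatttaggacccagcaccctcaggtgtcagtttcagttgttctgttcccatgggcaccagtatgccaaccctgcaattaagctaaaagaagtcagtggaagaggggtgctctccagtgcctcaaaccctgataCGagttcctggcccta
Grm3: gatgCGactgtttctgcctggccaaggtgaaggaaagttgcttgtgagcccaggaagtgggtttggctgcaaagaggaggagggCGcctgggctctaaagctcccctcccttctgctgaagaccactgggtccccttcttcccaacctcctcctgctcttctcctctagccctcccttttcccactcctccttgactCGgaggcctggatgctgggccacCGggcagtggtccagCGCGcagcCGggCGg
Gabrr2 and Chrna10 each held 1 CpG pair and Grm3 held 8, where the median over 32851 promoters of the same length was 6 and 18.8% had at most 1. None of the 3 held a GAS element (TTCNNNGAA, found on either strand in 7.02% of all promoters), an NF-kB site by its 10-letter consensus (3.90%), the interferon-stimulated response element core (2.98%) or the cAMP element TGACGTCA (1.55%). The table holds promoters for 66 of the 91 receptor genes.

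Of the 5 receptor genes that fell in input, Grm3 and Grm4 are given above. Gabrd went from 2680.3, 2164, 2649 and 2509 to 1798, 2060.2, 2134 and 1809, without overlap (-0.36 ± 0.11, adjusted p = 0.037). Grin3a went from 1176, 1371, 1070.2 and 1329 to 869.7, 1004, 904 and 1048 (-0.37 ± 0.12, adjusted p = 0.044) and Adrb1 from 683, 720.2, 702 and 639 to 473, 579, 499 and 582 (-0.36 ± 0.12, adjusted p = 0.047), also without overlap. These 3 calls stood near the threshold. That of Gabrd was lost without Input PBS 268 (-0.32), 273 (-0.33) or 506 (-0.36) or Input LPS 266 or 507 (both -0.32). That of Grin3a was lost in 12 of 25 alternatives, among them those without Input PBS 272 (-0.32), Input PBS 268 or Input LPS 267 (both -0.39), Input PBS 506 or Input LPS 266 (both -0.33), Input LPS 270 (-0.34) or Positive PBS 273 or 506 (both -0.37). That of Adrb1 was lost in 14 of 25, among them those without Input LPS 266 (-0.31), Input PBS 506 (-0.39), 268 (-0.36), 272 (-0.34) or 273 (-0.35), Input LPS 270 (-0.33), and Positive PBS 272, 273 or 506 or Positive LPS 267 (all -0.36).

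The fourth comparison tested whether the LPS effect differed between the fractions. Of 80 receptor genes 2 were called, both with a lower effect in the positive fraction, where over all genes the effect was called higher for 5.44% and lower for 1.47%. The median over the receptor genes was -0.23, and over all genes -0.02. The 2 were Gabrr2 (-1.45 ± 0.38, adjusted p = 0.027), whose libraries are listed above, and Gria1. Gria1 had 14172, 11643, 12491 and 14452 in Input PBS and 14450.0, 12802, 13852 and 13563 in Input LPS, which overlapped, and 10644, 11078, 11155 and 12240.5 in Positive PBS and 8963, 9084, 9132, 8905 and 8998 in Positive LPS, which did not (difference -0.38 ± 0.10, adjusted p = 0.029). The call of Gabrr2 was lost without Input PBS 272 (-1.41), 273 (-1.42) or 506 (-1.31), Input LPS 266 (-1.43) or 507 (-1.45), or Positive PBS 268 (-1.41) or 273 (-1.14). That of Gria1 was lost without Input PBS 272 (-0.32) or 273 (-0.35), Input LPS 266 (-0.35) or 507 (-0.38), Positive PBS 506 (-0.33) or Positive LPS 507 (-0.37), and its LPS effect in the positive fraction fell under the fold limit without Positive PBS 506 (-0.28) or Positive LPS 266, 267 or 507 (each -0.32) or 271 (-0.31). With animal terms in the fit 6 receptor genes were called, adding Gabra5, Grik4, Grin3a and Htr3a. Calls over all 14803 genes rose with these terms too, from 217 to 608 lower and from 806 to 1310 higher.

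A list of 17 receptor genes often studied on microglia was counted as well. Of the 16 tested, 2 were higher in the positive fraction than in input in PBS animals (among them Adrb1) and 5 lower. After LPS 8 were lower and none higher in the positive fraction, and 2 were lower in input. The shares over all genes in these comparisons are given above. Htr2b, on the same list but not tested, had 10.9, 1.9, 3.92 and 3.82 normalised counts in Positive PBS and 9.8, 6.22, 12.1, 4.42 and 2.01 in Positive LPS, against 2.73, 0, 3.8 and 0 and 13.1, 1.84, 5.75 and 11.3 in the inputs. The groups overlapped.

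The 11 genes that were not tested had low counts. Drd4 was the highest, with 5.16 to 15.2 normalised counts in Input PBS libraries, 8.31 to 24.6 in Input LPS, 14.3 to 32.7 in Positive PBS and 17.2 to 47.5 in Positive LPS. These ranges overlapped between fractions within each treatment and between treatments within each fraction. Gabrr1 had 3.81 to 20.4 in Positive PBS and 1.91 to 12.8 in Input PBS. The muscle-type nicotinic subunit genes Chrnd, Chrne and Chrng did not exceed 3.81 in any library.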

How the data were processed

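RNA of input and TRAP positive fractions was sequenced in 18 libraries. The authors aligned reads by strand to mm10 and deposited estimated counts per gene. The authors also deposited log2 values of normalised counts, which were not used. Of the nonzero counts 81.1% were not whole (tolerance 0.001), and they were rounded. Size factors were medians of ratios over 15766 genes. Genes with over 20 normalised counts in every library of at least 1 group were fitted in edgeR (4.0.16) with 4 group means over 17 libraries, without the nearly empty Input LPS 271. The authors tested with analysis of variance, replaced here by a count model. Fits were tested on simulated data.

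Members, gene lists and tests were chosen with earlier results of these data known. Genes named with values were those often studied on microglia and called members with the largest changes. The latter were up to 8 in each direction for positive against input in PBS animals and up to 8 for the LPS effect in each fraction. Members called for the difference between fractions were named too. No such rule was set for positive against input in LPS animals. Further members were named by class after their values were seen. Some members are counted but not reported here by name. Alternatives used TMM, DESeq2 (1.42.0), limma (3.58.1), no filter, sex, other sets of libraries and each library left out. Numbers pair libraries because both came from the same animal. Deviations from group means correlated at 0.16 to 0.52 in the 8 animals with both libraries. The main fit has no animal term, so its p-values treat the 17 libraries as independent replicates. The pairing of input and positive libraries enters the p-values only in the fits with animal terms or with animal as a block. Sex was not balanced between treatments.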

Additional observations from a re-analysis of the deposited data

Results flagged for a closer look

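Among 144 groups of 4 or 5 libraries of the named receptor genes, 8 held a library far from the others by Dixon's criterion, where chance gives about 5% of groups. In Input PBS, animal 272 was low for Grin1 (13584 normalised counts, the others 15139 to 15419) and high for Htr7 (446, the others 309 to 327), and animal 273 was low for Chrm3 (600.2, the others 787 to 806) and for Drd2 (309, the others 480.1 to 490.1). In Positive PBS, animal 272 was low for Gabrd (1388, the others 1678 to 1734), animal 506 was high for Grm2 (1399, the others 1094 to 1126) and animal 273 was low for Chrnb3 (84.9, the others 124 to 129). In Input LPS, animal 507 was high for Htr7 (356, the others 285 to 293).

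The LPS effect differed between fractions for Gabrr2, by -1.45 on the log2 scale, and for Gria1, by -0.38, by the interaction term in edgeR. The Input LPS library of animal 271, which was in no comparison, held 6 counts on 3 of the receptor genes.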

How the results depend on the processing

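The number of receptor genes called, 30 for the LPS effect in the positive fraction, 31 for positive against input in PBS animals and 44 in LPS animals, moved by less than 1.5 times under every alternative. Leaving out 1 library at a time gave 25 to 33, 27 to 34 and 40 to 47. The count of 7 for the LPS effect in input went to 11 with the replicate block, 3 without animals 506 and 507, 4 with all 18 libraries and 12 with only the libraries compared. It ranged from 4 to 10 without 1 library, and was 4 without Input PBS 268 or 506. Over all genes the block took the calls for this effect from 766 to 930 lower and from 1064 to 1055 higher. The count of 2 for the difference between fractions went to 4 with DESeq2, 1 without the filter, 6 with the replicate block, 0 without animals 506 and 507 and 1 with all 18 libraries. It ranged from 0 to 3 without 1 library. It was 0 without Input PBS 272 or 273 or Input LPS 266 or 507, and 1 without Input PBS 506, Positive PBS 268, 273 or 506 or Positive LPS 507. The cause was not tested. At an unadjusted p under 0.05 there were 13 receptor genes for this difference. Without the share of all genes at this p, that count cannot show whether receptor genes stand out.

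With the nearly empty library in the scaling, the median log2 ratio of positive to input over all genes moved to -0.12 in PBS animals, where 37.5% of all called genes were higher (51.8% without it), and to -0.11 in LPS animals, where 43.1% were (50.6%). The receptor genes called were then 4 higher and 27 lower in PBS animals and 3 and 46 in LPS animals.

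Of 3008 values of named genes under alternatives, 2823 kept their direction and side of the threshold, 125 lost it and 59 gained it. The difference of Chrna6, -0.29 and uncalled, ran from -0.55 without Input LPS 266 to 0.0032 without Positive PBS 272. The replicate block changed 22 calls of receptor genes, most of them given beside the gene. With sex as a covariate, 33 receptor genes were called for the LPS effect in the positive fraction and 6 in input. Low counts, as for Chrna10 and Gabrr2, limit the precision of their fold changes.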

Other observations

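The dopamine D1 receptor gene, listed as Drd1a, is the partner of Drd2 in the direct striatal pathway. It had 872, 881, 642 and 874 normalised counts in Input PBS, 952, 789, 687 and 823 in Input LPS, 310.4, 359, 306 and 353 in Positive PBS and 284, 238, 243, 234 and 255 in Positive LPS. It was lower in the positive fraction than in input in PBS animals (-1.31 ± 0.12, edgeR adjusted p = 1.0e-07) and in LPS animals (-1.71 ± 0.12), without overlap. Its ratio within an animal was 0.299 to 0.476. It fell after LPS in the positive fraction (-0.40 ± 0.12, adjusted p = 0.011), and the input groups overlapped.

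Receptors for other transmitters, such as purines, peptides and glycine, moved in both directions. Of 31 tested, 5 were higher and 8 lower after LPS in the positive fraction, and 4 were higher and 6 lower in input. In PBS animals 9 were higher and 8 lower in the positive fraction than in input. Over all genes, the shares called higher and lower were 18.9% and 14.9% after LPS in the positive fraction. They were 7.19% and 5.17% after LPS in input, and 20.7% and 19.2% for positive fraction against input in PBS animals.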
